A study of Homo with 4 samples.

Results

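Among the 20263 genes counted in H1299 cells, 42 encode the enzymes and carriers that feed pyruvate into the tricarboxylic acid (TCA) cycle, run the cycle itself and exchange its intermediates with the cytosol. These 42 genes were taken from a list of symbols and matched to the deposited Ensembl gene models by their position on GRCh38, and all 42 were found. H1299, the line used, derives from a human non-small cell lung carcinoma and is long established in culture. RNA was sequenced from H1299 cells infected with lentivirus carrying a control hairpin (shCtrl, n = 2; genotype given as WT) and from cells with a hairpin against the RNA-binding protein IGF2BP3 (shIGF2BP3, n = 2; genotype given as IGF2BP3 knockdown). Both groups were grown in the same serum-supplemented medium, and the comparison asks how the knockdown altered expression. The knockdown was stable and delivered by short-hairpin RNA. The shIGF2BP3 libraries are called replicates 1 and 2 after their sample titles, but their deposited columns are numbered 2 and 3, so a number shared with a shCtrl library has no sure meaning. Whether the 2 shIGF2BP3 libraries carry 1 hairpin or different ones is not given in the sources used here, and the p-values measure only the spread between these libraries.

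The mitochondrial pyruvate carrier brings the end product of glycolysis into the matrix, where the pyruvate dehydrogenase complex turns it into acetyl-CoA. Citrate synthase joins acetyl-CoA to oxaloacetate, and the following dehydrogenases release carbon dioxide while loading electrons onto NADH and, at succinate dehydrogenase, directly onto the respiratory chain. Anaplerotic enzymes refill the cycle from pyruvate, glutamate or aspartate. Citrate that leaves through its carrier supplies the cytosolic acetyl-CoA used for fatty acid and sterol synthesis, which makes these genes the upstream neighbours of lipogenesis in cancer cells.

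Total counts were between 29709686 and 34817513 per library. The targeted gene, IGF2BP3 (chromosome 7 from 23310209 to 23470467), was at 41.1 and 32.9 CPM (counts scaled to library size with the TMM factors of edgeR) in shCtrl and at 26.4 and 24.8 CPM in shIGF2BP3. Both shIGF2BP3 values lay under both shCtrl values, and the log2 fold change was -0.53 with a standard error of 0.17 and an adjusted p of 0.472 in edgeR's quasi-likelihood fit. The share of counts on the 13 mitochondrially encoded genes ranged from 9.11% in shCtrl replicate 1 to 17.02% in shIGF2BP3 replicate 2. The cells are labelled epithelial, and the 5 epithelial markers were mixed. KRT8 and KRT18 were expressed, at means of 771 and 1223 CPM, while KRT19, EPCAM and CDH1 were each under 1 CPM on average. The 3 mesenchymal markers summed to between 4405 and 7149 CPM, nearly all of it VIM, which was highest in shIGF2BP3 replicate 2, while FN1 was lowest there (13.9 CPM) and CDH2 was highest in shCtrl replicate 1 (37.2 CPM). Of 14 markers of fibroblasts, endothelium and blood cells, 0 reached a mean of 1 CPM. The part of the mitochondrially encoded share and of VIM in the results was not tested beyond the fit without the mitochondrially encoded genes.

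The study's thresholds were used for calls, namely a fold of 1.5 or more together with an unadjusted p no higher than 0.05, here from edgeR's quasi-likelihood test across 13379 genes. Of the 42 genes, 3 were past these thresholds with lower levels in shIGF2BP3, namely citrate synthase CS, the succinate dehydrogenase subunit SDHC and the 2-hydroxyglutarate dehydrogenase D2HGDH. The isocitrate dehydrogenase subunit IDH3A was the 1 gene past them with a higher level. The 4 genes made up 9.52% of the list, against 5.32% of all genes tested. In the lower direction the background was 2.78% and in the higher direction 2.54%. The count rested on single libraries. It was 3 without shCtrl replicate 1 and 2 without shCtrl replicate 2 (D2HGDH and SDHC). It was 6 without shIGF2BP3 replicate 1, where PCK2, SDHD and SLC25A10 joined and D2HGDH was lost, and 2 without shIGF2BP3 replicate 2 (D2HGDH and ME2). After Benjamini-Hochberg adjustment over all genes tested, an adjusted p under 0.05 was reached by 0 of the 42 with edgeR, DESeq2 or limma. The smallest adjusted p was 0.472 with edgeR. With DESeq2 the adjusted p was 0.0813 for IDH3A, 0.105 for SDHC and 0.128 for D2HGDH, and 5 genes were past the fold and unadjusted p thresholds, SLC25A10 being the addition. With edgeR, 5 genes (11.9%, against 10.5% of all genes tested) had an unadjusted p of at most 0.05. No change described here therefore passed the adjusted test.

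Lower levels were more frequent than higher ones. The log2 fold change was negative for 31 of the 42 genes (73.8%, against 50.2% of all genes tested), and its median was -0.16 against -0.0019 for all genes tested. Scaled by library totals in place of TMM factors, 36 of the 42 were negative and the median was -0.24, while the median of all genes was -0.08. Both shIGF2BP3 libraries lay below both shCtrl libraries for 21 genes (50%, against 23.5% of all genes tested). They lay above both for 3 genes, PDHX, IDH3A and FH, a share of 7.14% against 23.3%. The shift was larger in 1 of the libraries. Relative to the shCtrl mean, the median of the 42 genes on the log2 scale was -0.10 in shIGF2BP3 replicate 1 and -0.20 in replicate 2, and -0.01 and 0.01 in the shCtrl libraries. Replicate 2 of shIGF2BP3, which also had the highest mitochondrially encoded share, held the lowest value of 19 of the 42 genes (45.2%, against 31.5% of all genes tested). The lowest value lay in shIGF2BP3 replicate 1 for 8 genes (19%, against 16.3%), in shCtrl replicate 1 for 5 (11.9%, against 24.8%) and in shCtrl replicate 2 for 10 (23.8%, against 27.4%). Without shIGF2BP3 replicate 2 the median was -0.11. With the mitochondrially encoded genes left out of the table the median was -0.16.

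**Figure D1:**
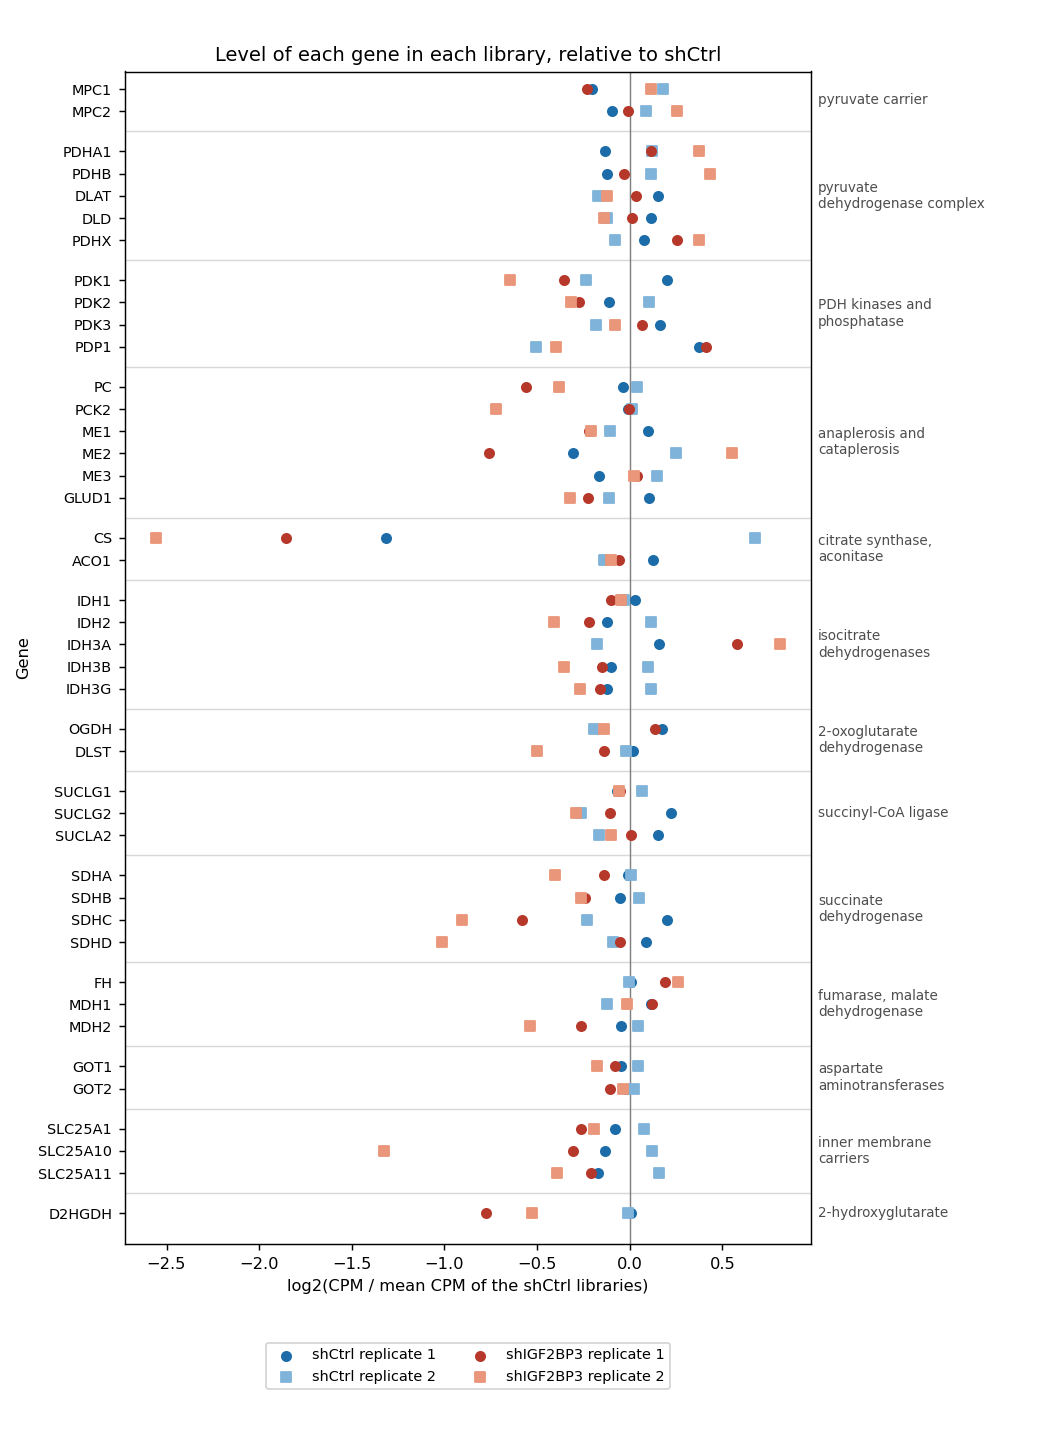
Level of each of the 42 genes in each library, as the log2 ratio of its CPM to the mean CPM of the 2 shCtrl libraries (horizontal axis), with genes grouped by enzyme step (vertical axis). Blue symbols are shCtrl and red symbols are shIGF2BP3, circles replicate 1 and squares replicate 2. Both shIGF2BP3 libraries lie to the left of both shCtrl libraries for 21 genes and to the right for 3, and the gap between the shCtrl libraries of CS is wider than that of any other gene shown.

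Expression per transcript length, in FPKM (fragments per kilobase of transcript, scaled to the depth of the library), placed the malate and succinate steps at the top. MDH2, the mitochondrial malate dehydrogenase, had the highest mean level of the 42 genes, at 263 FPKM over the 4 libraries. SDHB, the iron-sulfur subunit of succinate dehydrogenase, followed at 132 FPKM, the cytosolic malate dehydrogenase MDH1 at 115 and IDH3B, a subunit of the NAD-dependent isocitrate dehydrogenase, at 96.1. The ranges of SDHB and MDH1 over the 4 libraries overlapped, so their order is not separated by the spread. At the other end, the kinase PDK1 was at 1.55 FPKM, PDK3 at 1.80 and pyruvate carboxylase PC at 2.65. Of the 42 genes, 31 had a mean of at least 10 FPKM. Every gene had at least 104 counts in each library, so none was near the limit of detection.

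**Figure D2:**
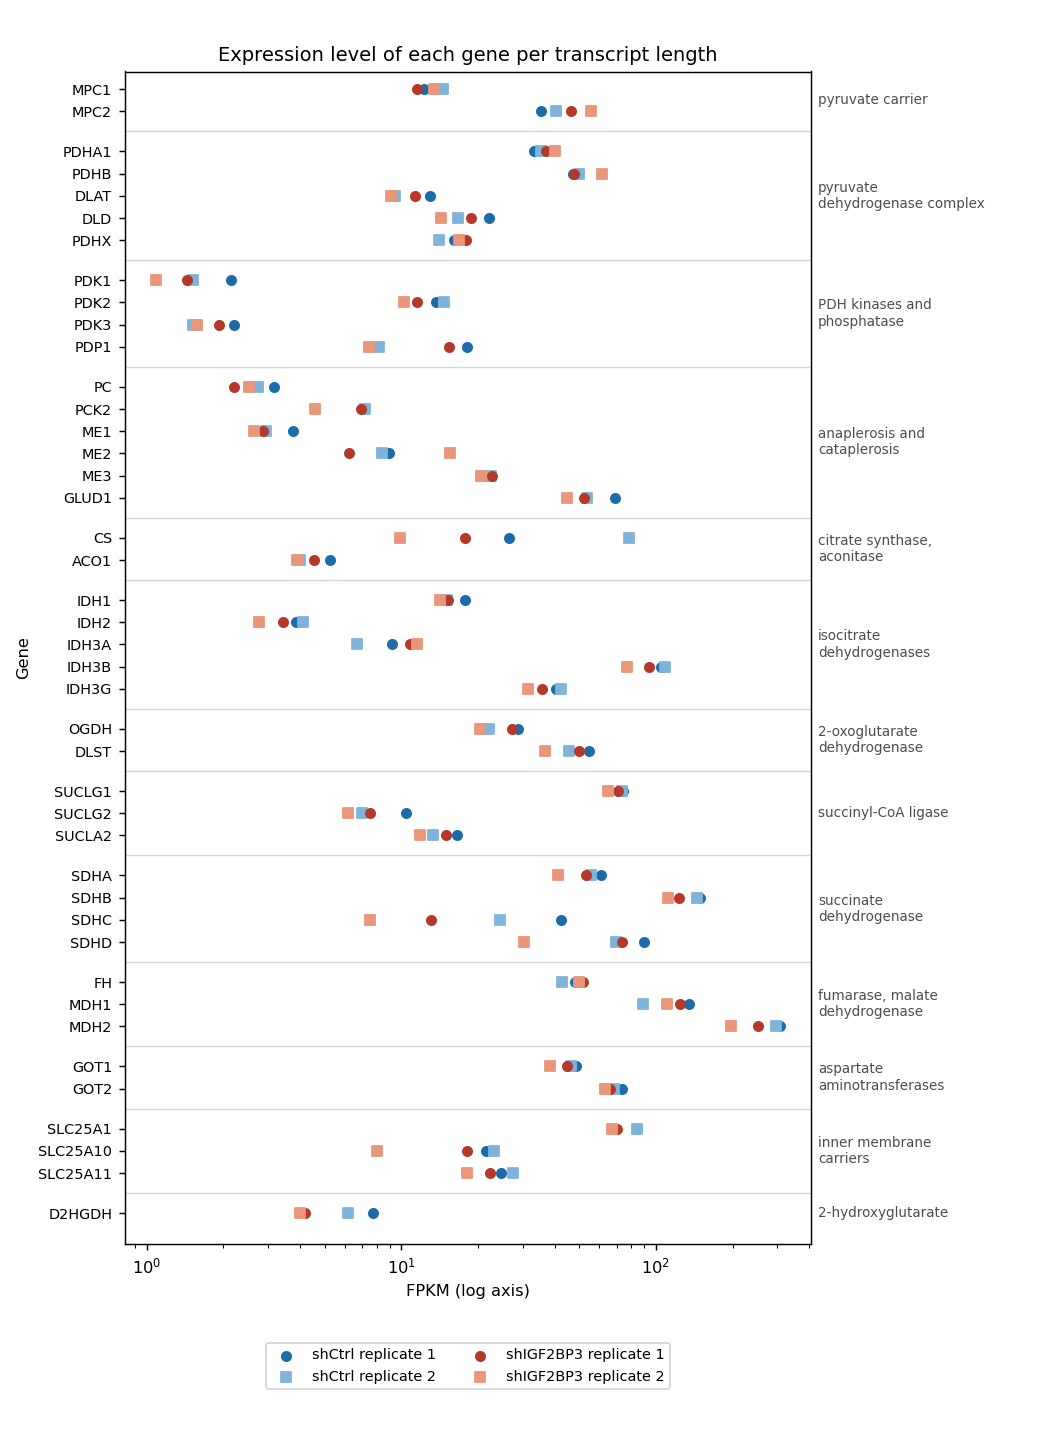
FPKM of each gene in each library on a log axis, with genes grouped by enzyme step; colours and symbols stand for libraries as named in the key. Levels run from about 1.55 FPKM for PDK1 to 263 FPKM for MDH2 as means over the 4 libraries.

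At the entry of pyruvate, 0 of 7 genes of the carrier and the dehydrogenase complex were past the thresholds. MPC2, which forms the mitochondrial pyruvate carrier with MPC1, was at 56.6 and 64.3 CPM in shCtrl and at 60.2 and 72.2 CPM in shIGF2BP3, so the groups overlapped. Its log2 fold change was 0.13 (standard error 0.16), and that of MPC1 was -0.05 (0.23). The FPKM level of MPC2 relative to MPC1 differed more than the counts did. It was 2.87 and 2.78 in shCtrl and 4.04 and 4.13 in shIGF2BP3. The MPC2 transcripts differed in direction. ENST00000271373 was at 17.6 and 25.0 FPKM in shCtrl and at 34.8 and 45.3 FPKM in shIGF2BP3, whereas ENST00000367846 was at 17.3 and 15.2 FPKM in shCtrl and at 11.2 and 9.68 FPKM in shIGF2BP3. The estimated transcript mix of MPC2 thus differed between the groups while its summed counts overlapped.

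The pyruvate dehydrogenase complex is built of an E1 heterotetramer (PDHA1 and PDHB), the E2 acetyltransferase DLAT, the E3 dehydrogenase DLD and the E3-binding protein PDHX. PDHB, the member of the complex with the highest FPKM, was at 77.4 and 91.3 CPM in shCtrl and at 82.7 and 114 CPM in shIGF2BP3. PDHX was at 39.8 and 35.7 CPM in shCtrl and at 45.1 and 48.9 CPM in shIGF2BP3, with no overlap, and its log2 fold change of 0.32 (standard error 0.14) gave an unadjusted p of 0.0742 by edgeR. The E1 subunits PDHA1 and PDHB had log2 fold changes of 0.25 and 0.22, while DLAT and DLD had -0.04 and -0.06. Summed over the 5 genes, the complex was at 131 and 125 FPKM in shCtrl and at 133 and 142 FPKM in shIGF2BP3. Both shIGF2BP3 sums lay above both shCtrl sums.

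The kinases that switch the complex off by phosphorylating E1 had log2 fold changes below 0, and 0 of 3 were past the thresholds. PDK2, the kinase with the highest FPKM, was at 50.9 and 59.3 CPM in shCtrl and at 45.6 and 44.2 CPM in shIGF2BP3, and did not overlap (log2 fold change -0.29, standard error 0.14). PDK1, the kinase known as a target of hypoxia signalling, was at 11.2 and 8.23 CPM in shCtrl and at 7.59 and 6.21 CPM in shIGF2BP3. Its log2 fold change was -0.49 (standard error 0.24; unadjusted p = 0.0937 by edgeR), and the groups were separated by less than the gap between the shCtrl libraries. PDK3 had -0.01 (0.24). The phosphatase PDP1, which switches the complex back on, had a log2 fold change of 0.06 with a standard error of 0.38. It was at 65.8 and 35.9 CPM in shCtrl and at 67.5 and 38.5 CPM in shIGF2BP3, so the libraries within each group differed by more than the groups did.

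Of the anaplerotic and cataplerotic enzymes, 4 of 6 had negative log2 fold changes and 0 were past the thresholds. GLUD1, the glutamate dehydrogenase that delivers 2-oxoglutarate, was at 228 and 197 CPM in shCtrl and at 182 and 170 CPM in shIGF2BP3 (log2 fold change -0.28, standard error 0.14). PC, which carboxylates pyruvate to oxaloacetate, was at 7.71 and 8.12 CPM in shCtrl and at 5.36 and 6.06 CPM in shIGF2BP3. Its groups did not overlap, and its log2 fold change was -0.47 (standard error 0.20, unadjusted p = 0.0599 by edgeR). The PC transcript with the most FPKM, ENST00000529047, held 112 and 122 counts in shCtrl and 114 and 123 in shIGF2BP3. ENST00000393960 held 136 and 153 against 71 and 3, and ENST00000393955 held 41 in shIGF2BP3 replicate 2 only. LRFN4, inside PC on the other strand, held 1192 and 1285 counts in shCtrl and 908 and 703 in shIGF2BP3. Its part in the counts of PC was not tested. PCK2, the mitochondrial phosphoenolpyruvate carboxykinase, depended on 1 library. It was at 17.8 and 18.0 CPM in shCtrl, at 17.8 CPM in shIGF2BP3 replicate 1 and at 10.9 CPM in replicate 2, and its log2 fold change of -0.32 (0.27) was -0.71 without shIGF2BP3 replicate 1. The malic enzymes differed in scatter. ME1, the cytosolic NADP-dependent form, had a log2 fold change of -0.21 and ME3, a mitochondrial NADP-dependent form, one of 0.03. The ME3 transcript ENST00000524826 made up 0.26% and 2.84% of the FPKM of ME3 in shCtrl and 74.3% and 69.0% in shIGF2BP3. ENST00000393324 made up 57.4% and 30.7% in shCtrl and 1.33% and 15.9% in shIGF2BP3. ME2, the mitochondrial NAD-dependent form, was at 38.6 and 56.8 CPM in shCtrl and at 28.2 and 69.8 CPM in shIGF2BP3, so its extremes were the shIGF2BP3 replicates, and without shIGF2BP3 replicate 2 its log2 fold change turned from 0.04 to -0.76 (unadjusted p = 0.0428 by edgeR). The sign of ME2 and ME3 also turned with library totals.

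CS, the citrate synthase that opens the cycle (ENSG00000062485; chromosome 12 from 56271699 to 56300392), had the largest fitted change of the 42 genes. It was at 69.3 and 276 CPM in shCtrl and at 47.7 and 29.4 CPM in shIGF2BP3. The shIGF2BP3 values were the lower pair, but the shCtrl libraries differed from each other by more than shCtrl replicate 1 did from either shIGF2BP3 library. The means were 173 ± 146 CPM in shCtrl and 38.5 ± 13.0 CPM in shIGF2BP3 (SD, n = 2). The log2 fold change was -2.16 (standard error 0.66; unadjusted p = 0.0193, adjusted p = 0.472 by edgeR). Without shCtrl replicate 2 it was -0.85, with an unadjusted p of 0.0626, and without shIGF2BP3 replicate 2 it was -1.86, with an unadjusted p of 0.0566 by the same edgeR test, so the call was lost in both. The excess in shCtrl replicate 2 came from 1 transcript. ENST00000351328 was estimated at 8368 counts there, against 965 in shCtrl replicate 1 and 806 and 304 in shIGF2BP3. The transcript ENST00000549143 went the other way, with 0 counts in shCtrl replicate 2, 615 in shCtrl replicate 1, and 707 and 79 in shIGF2BP3. A gene model that overlaps CS on the same strand (ENSG00000144785) held between 28 and 218 counts, and pooling it with CS gave a log2 fold change of -2.16. The aconitase ACO1, whose protein serves in the cytosol and as an iron sensor, had a log2 fold change of -0.08 (standard error 0.16).

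The isocitrate dehydrogenases differed in direction. IDH3A (ENSG00000166411; chromosome 15 from 78149321 to 78171949), the catalytic subunit of the NAD-dependent enzyme, was at 37.6 and 29.8 CPM in shCtrl and at 50.4 and 59.2 CPM in shIGF2BP3. Here the shIGF2BP3 values were the higher pair. The means were 33.7 ± 5.53 and 54.8 ± 6.20 CPM (SD, n = 2), and the log2 fold change was 0.70 (standard error 0.18; unadjusted p = 0.00974, adjusted p = 0.472 by edgeR). Its partners IDH3B and IDH3G, the regulatory subunits of the same enzyme, had log2 fold changes of the opposite sign, -0.25 (0.15) and -0.21 (0.15). IDH3B was at 146 and 168 CPM in shCtrl and at 142 and 123 CPM in shIGF2BP3. In FPKM, IDH3B exceeded IDH3A by a ratio of 11.5 and 16.1 in shCtrl and of 8.70 and 6.67 in shIGF2BP3, and IDH3G exceeded it by 4.42 and 6.30 against 3.30 and 2.74. The subunit levels were therefore less unequal in both shIGF2BP3 libraries than in either shCtrl library. The transcript ENST00000299518 carried most of the FPKM of IDH3A, at 8.0 and 5.62 FPKM in shCtrl and at 10.4 and 11.4 FPKM in shIGF2BP3. With 1 library left out, the log2 fold change of IDH3A lay between 0.54 and 0.88. It was under a fold of 1.5 without shCtrl replicate 2 (0.54) and without shIGF2BP3 replicate 2 (0.58), and also by limma on log2(FPKM + 1), where it was 0.46. The NADP-dependent forms had -0.07 (0.13) for the cytosolic IDH1 and -0.31 (0.19) for the mitochondrial IDH2. IDH1 was at the higher FPKM level of the pair in every library, by a ratio of 3.68 to 5.16.

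In the 2-oxoglutarate dehydrogenase complex, the E1 component OGDH had a log2 fold change of 0.01 (standard error 0.19), a sign that turned with library totals. The E2 component DLST was at 158 and 153 CPM in shCtrl and at 141 and 110 CPM in shIGF2BP3, with -0.31 (0.17), and DLD serves this complex as well. DLST was 1 of 2 genes of the list in which a transcript was at 10% or more of the FPKM in both libraries of a group and under 1% in both of the other. ENST00000238671 made up 0.14% and 0% of the FPKM of DLST in shCtrl and 16.4% and 23.97% in shIGF2BP3. Of the 3 succinyl-CoA ligase subunits, 0 were separated between the groups in CPM. SUCLG1, the subunit shared by the ATP-forming and GTP-forming enzymes, was at 119 and 130 CPM in shCtrl and at 120.3 and 119.6 CPM in shIGF2BP3. SUCLA2 and SUCLG2, which set the nucleotide used, had log2 fold changes of -0.05 (0.17) and -0.19 (0.22). SUCLA2 was the more abundant of the pair in FPKM in every library, by a ratio of 1.58 to 1.99.

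Succinate dehydrogenase, which is also complex II of the respiratory chain, had negative log2 fold changes for all 4 subunits. SDHC alone was past the thresholds, 3 subunits did not overlap between the groups in CPM, and SDHD overlapped. Summed over SDHA, SDHB, SDHC and SDHD, its level was 342 and 294 FPKM in shCtrl and 264 and 191 FPKM in shIGF2BP3, without overlap, and the shIGF2BP3 mean was 71.4% of the shCtrl mean. SDHB was at 187 and 200 CPM in shCtrl and at 164 and 161 CPM in shIGF2BP3 (log2 fold change -0.25, standard error 0.13). The flavoprotein SDHA had -0.27 (0.15), and the ratio of SDHB to SDHA in FPKM overlapped between the groups, at 2.46 and 2.60 against 2.33 and 2.72.

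SDHC (ENSG00000143252; chromosome 1 from 161314257 to 161375340), a membrane anchor subunit, was at 93.8 and 69.6 CPM in shCtrl and at 54.5 and 43.6 CPM in shIGF2BP3. Each shIGF2BP3 library was below both shCtrl libraries. The means were 81.7 ± 17.1 and 49.1 ± 7.70 CPM (SD, n = 2), and the log2 fold change was -0.73 (standard error 0.21; unadjusted p = 0.0137, adjusted p = 0.472 by edgeR). Its call was lost without shCtrl replicate 1 (-0.50, unadjusted p = 0.0617 by edgeR) and without shIGF2BP3 replicate 2 (-0.58, unadjusted p = 0.0582 by edgeR). Most of the difference lay in a single transcript. ENST00000342751 held 1439 and 805 counts in shCtrl and 294 and 67 in shIGF2BP3, while ENST00000367975, which extends further downstream, held 1936 and 1469 against 1513 and 1085. In FPKM the first was at 31.2 and 17.5 in shCtrl and at 6.56 and 1.71 in shIGF2BP3, and the second was between 2.31 and 3.47 in all 4 libraries. Summed over transcripts, the log2 difference of SDHC in FPKM was -1.60 by limma on log2(FPKM + 1), against -0.73 from the counts.

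SDHD, the other membrane anchor, was at 113 and 99.9 CPM in shCtrl, at 103 CPM in shIGF2BP3 replicate 1 and at 52.7 CPM in replicate 2, and the groups overlapped. The log2 fold change was -0.45 (standard error 0.32), -0.05 without shIGF2BP3 replicate 2 and -1.01 without shIGF2BP3 replicate 1. Its transcript ENST00000525291 made up 37.9% and 32.0% of the FPKM of SDHD in shCtrl and 0% in both shIGF2BP3 libraries. In shIGF2BP3 replicate 1, ENST00000528048 was at 27.2 FPKM, against 1.13 and 0.73 FPKM in shCtrl and 0 in shIGF2BP3 replicate 2. TIMM8B, which overlaps SDHD on the other strand, held 1766 and 2018 counts in the shCtrl libraries, fewer than the 4912 and 4117 of the shIGF2BP3 libraries. The 2 genes share only the short stretch of chromosome 11 from the start of SDHD at 112086773 to the end of TIMM8B at 112086798. The strand setting of the authors' counting is not given in the sources used here, so reads in that stretch cannot be told apart. SDHA, SDHC, SDHD and GLUD1 also have near-identical copies elsewhere in the genome, and their counts are uncertain where reads could be split between copies.

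**Figure D3:**
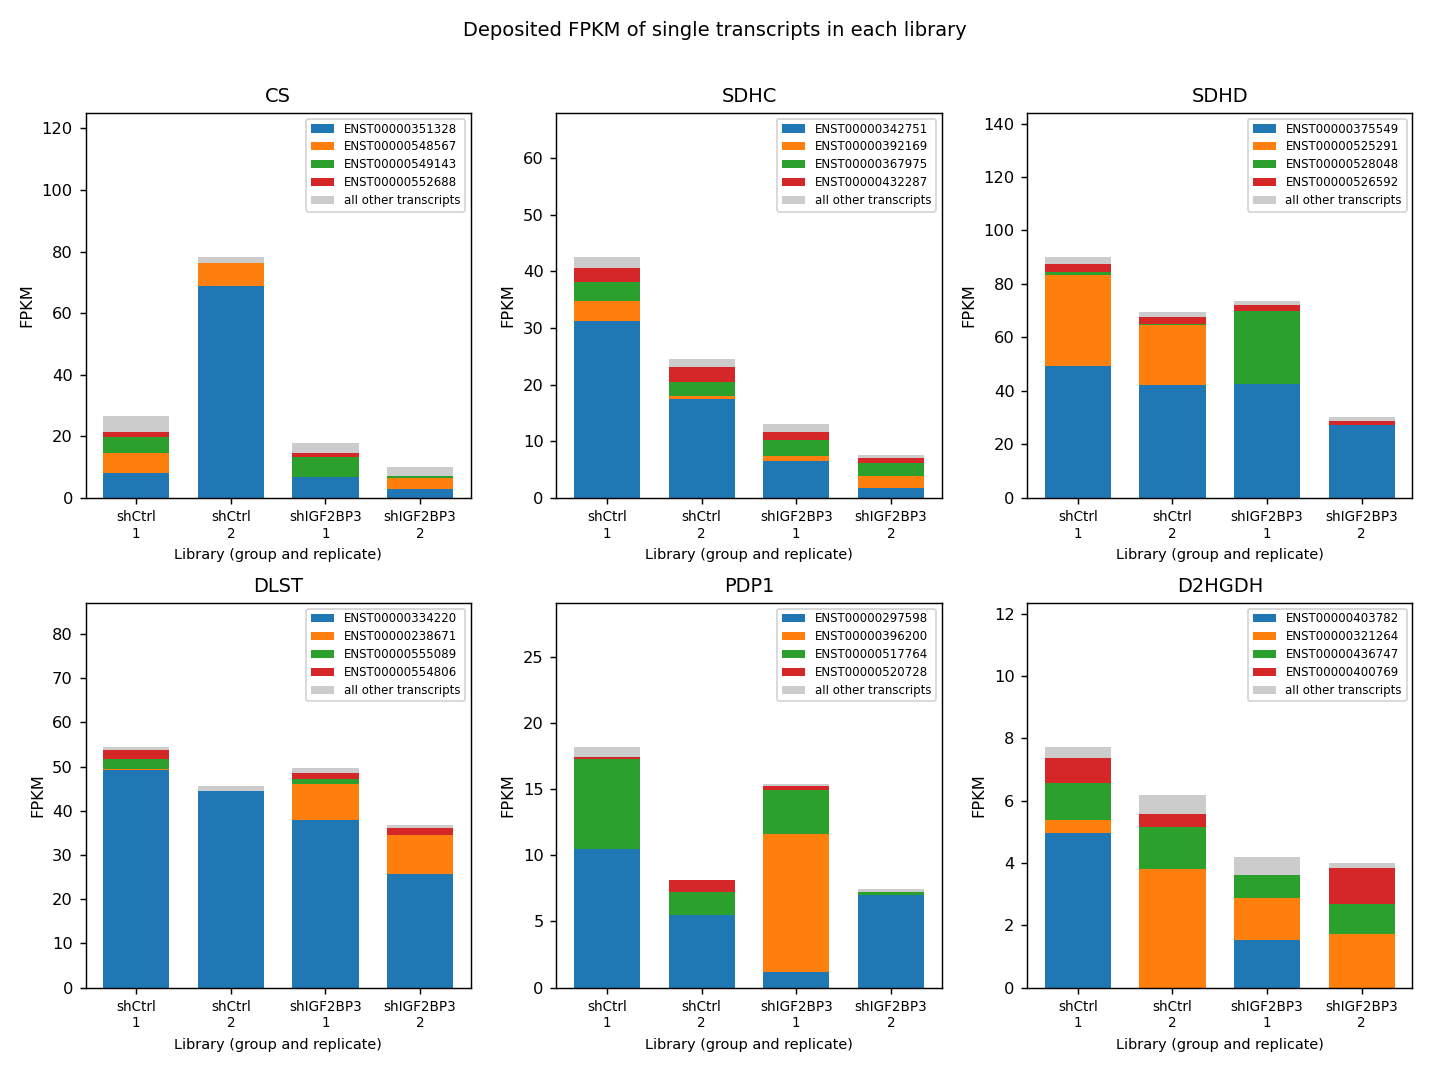
Deposited FPKM of single transcripts, stacked within each library, for CS, SDHC, SDHD, DLST, PDP1 and D2HGDH; colours are the 4 transcripts with the highest maximum and grey is the sum of the rest. The blue transcript of CS stands out in shCtrl replicate 2, the blue transcript of SDHC (ENST00000342751) is lower in both shIGF2BP3 libraries, and the orange transcript of DLST is seen in the shIGF2BP3 libraries.

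At the end of the cycle the enzymes differed in direction. FH, the fumarase, was at 93.8 and 93.0 CPM in shCtrl and at 107 and 112 CPM in shIGF2BP3, with no overlap and a log2 fold change of 0.23 (standard error 0.13; unadjusted p = 0.125 by edgeR). MDH2 was at 689 and 736 CPM in shCtrl and at 594 and 491 CPM in shIGF2BP3. Its shIGF2BP3 libraries were both lower, and its log2 fold change of -0.39 (0.15) had an unadjusted p of 0.0455 by edgeR with a fold of 1.31, under the fold threshold. MDH1 had 0.05 (0.15), a sign that turned with library totals. The mitochondrial enzyme exceeded the cytosolic one in FPKM by a ratio of 2.27 and 3.32 in shCtrl and of 2.03 and 1.78 in shIGF2BP3.

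The aspartate aminotransferases pair with the malate dehydrogenases in the malate-aspartate shuttle, which moves reducing equivalents into mitochondria. GOT2, the mitochondrial form, was at 197 and 203 CPM in shCtrl and at 186 and 195 CPM in shIGF2BP3 (log2 fold change -0.07, standard error 0.13). The cytosolic GOT1 had -0.13 (0.13). Both genes were lower without overlap, at 95.1% and 91.5% of the shCtrl level. The ratio of GOT2 to GOT1 in FPKM stayed between 1.47 and 1.64 in the 4 libraries.

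The 3 carriers had negative log2 fold changes. SLC25A1, the citrate carrier that exports the carbon used in lipid synthesis, was at 143 and 160 CPM in shCtrl and at 126 and 132 CPM in shIGF2BP3. Its groups did not overlap, with -0.23 (0.13; unadjusted p = 0.144 by edgeR). SLC25A11, the 2-oxoglutarate carrier of the malate-aspartate shuttle, had -0.30 (0.17). SLC25A10, the dicarboxylate carrier, was at 43.3 and 51.6 CPM in shCtrl and at 38.4 and 18.9 CPM in shIGF2BP3. Its fold was 1.65, but the log2 fold change of -0.73 had a standard error of 0.34 and an unadjusted p of 0.0835 by edgeR. It was past the thresholds by DESeq2 (-0.72, unadjusted p = 0.0445) and by limma on log2(FPKM + 1) (-0.83, unadjusted p = 0.0434), with adjusted p-values of 0.392 and 0.499. The value of shIGF2BP3 replicate 2 stood apart, and without it the log2 fold change was -0.31, against -1.32 without shIGF2BP3 replicate 1. A gene model that overlaps SLC25A10 on the same strand (ENSG00000262660; chromosome 17 from 81703371 to 81720539) held 48 and 65 counts in shCtrl, 42 in shIGF2BP3 replicate 1 and 1026 in replicate 2. Summed over both models, the shCtrl libraries held 1676 and 1813 counts and the shIGF2BP3 libraries 1368 and 1547, and the log2 fold change of the pooled locus was -0.035 (unadjusted p = 0.877 by edgeR).

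D2HGDH (ENSG00000180902; chromosome 2 from 241734579 to 241768811) returns D-2-hydroxyglutarate, a side product of the cycle, to 2-oxoglutarate. It was at 21.3 and 21.0 CPM in shCtrl and at 12.3 and 14.6 CPM in shIGF2BP3. Here the gap between the groups was larger than the gap within either group. The means were 21.1 ± 0.17 and 13.5 ± 1.62 CPM (SD, n = 2), which left 63.8% of the shCtrl level. The log2 fold change was -0.65 (standard error 0.17; unadjusted p = 0.0116, adjusted p = 0.472 by edgeR), and it was -0.52 without shIGF2BP3 replicate 1, under a fold of 1.5 and with an unadjusted p of 0.0663 by edgeR. The transcripts varied within the groups. ENST00000403782 was at 4.96 FPKM in shCtrl replicate 1, at 1.54 FPKM in shIGF2BP3 replicate 1 and at 0 in shCtrl replicate 2 and shIGF2BP3 replicate 2. ENST00000321264 was at 0.43 and 3.81 FPKM in shCtrl and at 1.34 and 1.72 FPKM in shIGF2BP3.

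**Figure D4:**
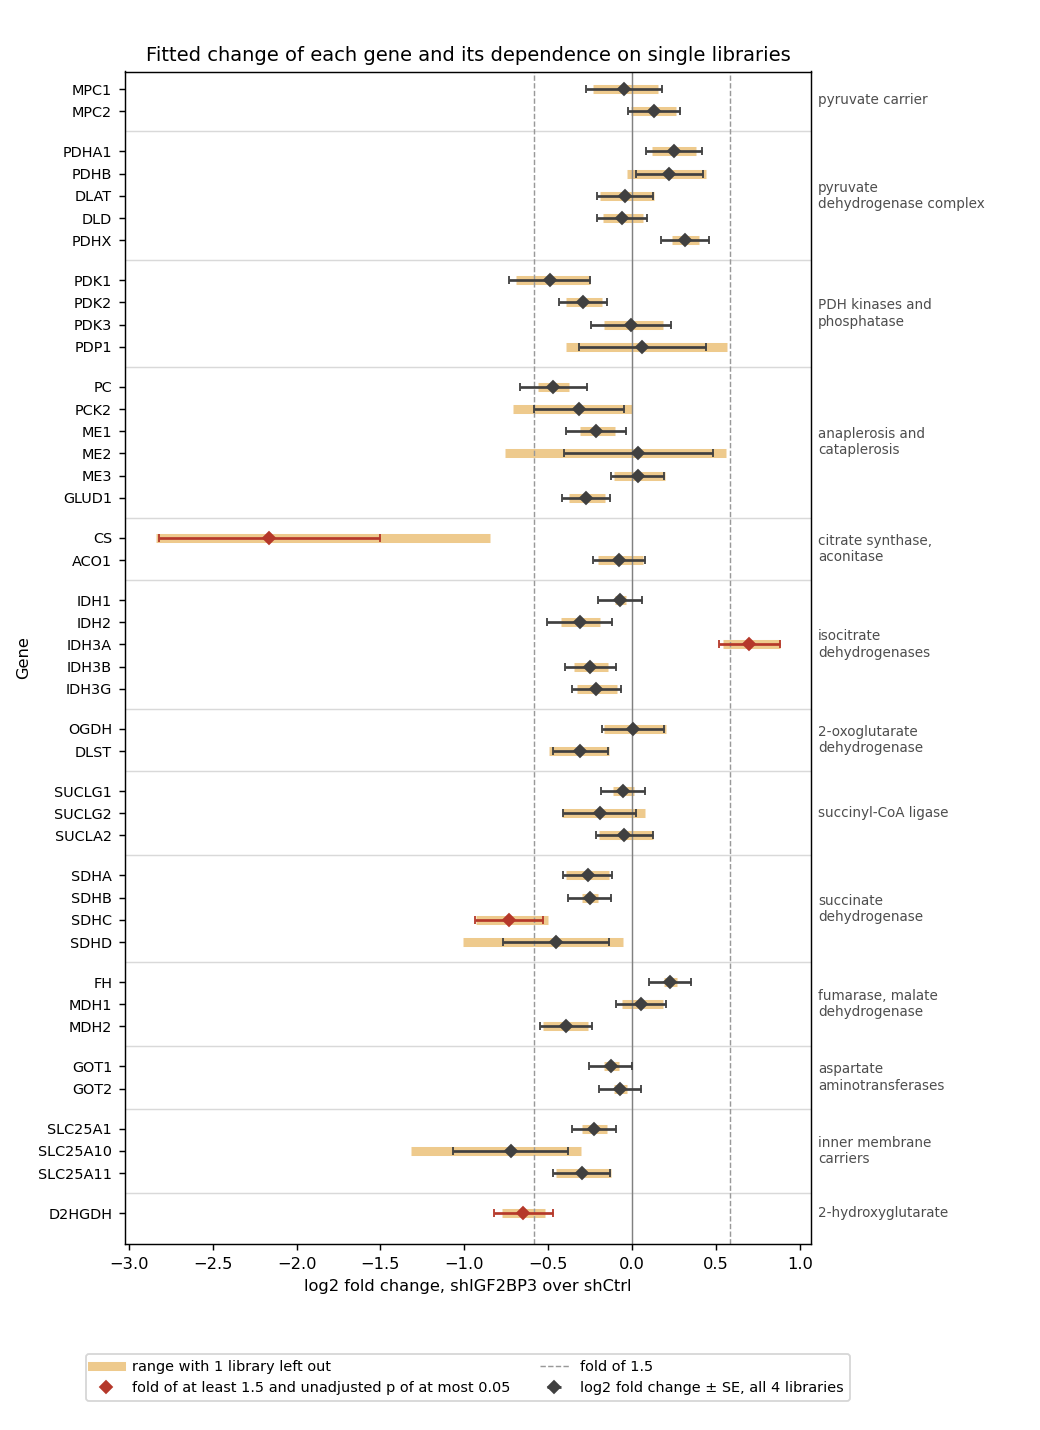
Fitted log2 fold change of each gene, shIGF2BP3 over shCtrl, with its standard error (diamonds and bars), and the range of the same value when each library was left out in turn (yellow bands). Dashed lines mark a fold of 1.5; red diamonds are CS, IDH3A, SDHC and D2HGDH, and the bands of CS, ME2, SLC25A10 and SDHD are wide.

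The steps were then taken in order by the sum of their FPKM. The shIGF2BP3 sums lay above the shCtrl sums at the pyruvate carrier (123.6% of the shCtrl mean) and the pyruvate dehydrogenase complex (106.7%). In CPM, however, MPC1 and MPC2 of the pyruvate carrier both overlapped between the groups, with a median log2 fold change of 0.04. Of the 5 genes of the pyruvate dehydrogenase complex, only PDHX did not overlap in CPM, and DLAT and DLD had negative log2 fold changes. The shIGF2BP3 sums lay below at citrate synthase and aconitase (31.8%, resting on CS), the isocitrate dehydrogenases (84.05%), succinate dehydrogenase (71.4%) and the aspartate aminotransferases (89.5%). They also lay below at the inner membrane carriers (76.9%), D2HGDH (58.9%) and the anaplerotic group (86.8%). Among these carriers, SLC25A1 and SLC25A11 were lower without overlap. SLC25A10 was at 7.99 FPKM in shIGF2BP3 replicate 2, but its pooled locus had a log2 fold change of -0.035. In succinate dehydrogenase, SDHC had means of 33.5 FPKM in shCtrl and 10.3 FPKM in shIGF2BP3, but was at 60.1% of shCtrl by counts. SDHD overlapped between the groups, and by counts SDHA was at 83.2% and SDHB at 83.9% of shCtrl. The sums overlapped at the kinases and phosphatase, the 2-oxoglutarate dehydrogenase complex, succinyl-CoA ligase, and fumarase with the malate dehydrogenases. These sums are levels per length and carry no test, and genes with a higher FPKM weigh more in them. On the FPKM scale the median log2 difference of all genes was itself -0.07 by limma on log2(FPKM + 1).

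A further 26 genes of the pathway that are not among the 42 were examined, of which 25 could be tested and 0 were past the thresholds. Their median log2 fold change was -0.14, and 14 of the 25 were lower (56%, against 50.2% of all genes tested). The lipoyl synthase LIAS, which makes the cofactor of the E2 enzymes, and the succinate dehydrogenase assembly factor SDHAF3 were higher without overlap, by 0.33 (0.15) and 0.36 (0.15) on the log2 scale. LIAS was at 30.1 and 30.7 CPM in shCtrl and at 35.9 and 40.2 CPM in shIGF2BP3. SDHAF3 was at 32.4 and 36.7 CPM in shCtrl and at 41.7 and 47.2 CPM in shIGF2BP3. PDK4 was under 1 CPM in every library and PCK1 was not tested for low counts. ACLY, the enzyme that splits exported citrate, had -0.23 (0.15; unadjusted p = 0.191 by edgeR).

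Presence of a transcript in 1 group only, taken as at least 10% of the FPKM of the gene in both libraries of a group and under 1% in both of the other, was a rule chosen after the values were seen. It held for 2 of the 38 genes of the list that had several transcripts and at least 1 FPKM in every library (5.26%), namely SDHD and DLST. Over all such genes it held for 329 of 9153 (3.59%). ENST00000631326 of OGDH and ENST00000524826 of ME3, given above, fell outside the rule because each was over 1% in shCtrl replicate 2. A transcript with at least 10% in 1 library and under 1% in the other 3 was found for 4 of the 38 genes (10.5%), namely IDH3A, ME2, PC and PDP1, and for 14.5% of all such genes. In PDP1, ENST00000396200 made up 67.5% of the FPKM in shIGF2BP3 replicate 1 and under 0.1% in the other libraries.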

How the data were processed

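RNA of 4 H1299 libraries (shCtrl and shIGF2BP3, n = 2 each) was sequenced after preparation with an mRNA library kit. Per the submitters' processing notes, CASAVA, Trimmomatic, HISAT2, bedtools and FastQC were used on GRCh38, while the counting tool, its strand setting and the annotation are not given in the sources used here. The authors deposited estimated counts per transcript, already whole numbers, and FPKM per transcript, both without pooling of replicates; the counts and the FPKM were summed per gene here.

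Of 20263 genes, 18304 were given a symbol by reciprocal overlap with RefSeq genes on GRCh38.p14 (shared part of at least 0.5, lead of at least 0.2), 86 of them, PDK1 included, by lying inside 1 RefSeq gene with a shared first or last base. Genes were filtered with filterByExpr (minimum count 10, minimum total 15), scaled by TMM and fitted with edgeR 4.0.16 in R 4.3.3 (prior count 0.125), with Benjamini-Hochberg adjustment over 13379 genes. DESeq2 1.42.0, limma 3.58.1 on log2(FPKM + 1) or log2(FPKM + 0.1), which understates the change of low genes, other scalings and filters, a replicate block and each library left out were alternatives. The steps were tested on simulated data. An exact permutation test of 2 against 2 cannot go below a two-sided p of 0.333.

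Library values were given for genes past a fold of 1.5 or an unadjusted p of 0.05, for genes without overlap and a fold of at least 1.25, and for the gene with the highest FPKM of each step. PDHX, FH, PCK2, ME2, PDP1 and SDHD, ACLY among the other pathway genes, the pooling of overlapping genes and the transcript rule were chosen after values were seen. So were the transcripts of OGDH, ME3 and PC. The genes and lists were chosen with earlier results of these data known. No sequence was analysed here. Values of some single genes of the wider pathway list are not reported here.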

Additional observations from a re-analysis of the deposited data

How the results depend on the processing

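With 2 libraries a group the fits have few degrees of freedom, and an adjusted p under 0.05 was reached by 0 of the 42 genes with edgeR, DESeq2 and limma under each setting tried. Scaling by library totals gave a median of -0.2419 for the 42 genes, against -0.1606, with 195 genes higher and 485 lower against 340 and 372, and -0.619 for IGF2BP3; the signs turned for PDP1 (-0.023), ME2 (-0.056), ME3 (-0.037), OGDH (-0.077) and MDH1 (-0.028). By limma on log2(FPKM + 1) the median was -0.2122, 125 genes were higher, IGF2BP3 was at -0.6, and PDP1 (-0.172), ME3 (-0.03) and OGDH (-0.095) turned. Without a filter the same median, IGF2BP3 value and signs were found, but 2 of the 42 genes were past the thresholds in place of 4, and 96 genes were higher and 224 lower. With a pseudocount of 0.1 the median was -0.2235, 183 genes were higher, IGF2BP3 was at -0.681, and PDP1 (-0.184), ME3 (-0.031) and OGDH (-0.099) turned. A fold of at least 2 left 1 of the 42 genes, CS, and 108 genes higher and 151 lower. Pooling with overlapping genes, an alternative chosen after seeing the data, gave a median of -0.1026. Replicate numbers, taken from the sample titles, did not pair the libraries (correlation of same-numbered deviations 0.022). The deposited shIGF2BP3 columns carry other numbers (2 and 3), so what a shared number means is uncertain. A replicate block on the title numbers gave 354 genes higher and 418 lower, the same 4 genes of the list, a median of -0.1523, and turned PDK3 (0.001) and ME2 (-0.077). The cause was not tested.

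With each library left out in turn, 2 to 6 of the 42 genes were past the thresholds, their median was -0.1927 to -0.1068, 213 to 680 genes were higher and 322 to 872 lower, and IGF2BP3 was at -0.685 to -0.36. The lone library of a group was then assumed to vary like the other group. Signs turned within the ranges of MPC1 (-0.232 to 0.155), MPC2 (-0.007 to 0.264), PDHB (-0.029 to 0.442), DLAT (-0.194 to 0.13), DLD (-0.174 to 0.063), PDK3 (-0.168 to 0.182), PDP1 (-0.393 to 0.567), ME2 (-0.76 to 0.558), ME3 (-0.111 to 0.197), ACO1 (-0.203 to 0.064), OGDH (-0.166 to 0.203), SUCLG1 (-0.115 to 0.013), SUCLG2 (-0.417 to 0.074), SUCLA2 (-0.197 to 0.125) and MDH1 (-0.06 to 0.183).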
